A study of Sesamum indicum with 195 samples.

Results

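Roots of EG and R2G, 2 sesame (Sesamum indicum) genotypes, were compared by RNA sequencing in the last hours of a waterlogging treatment. EG (Ezhi No. 2) is described by the study as highly susceptible to waterlogging and R2G (ZZM2541) as strongly tolerant. The libraries were chosen by their labels alone, as the 9 EG and the 9 R2G libraries from 28, 32 and 36 h of waterlogging, and make up 18 of the 195 samples and 6 of the 65 conditions of the series. Plants of both genotypes stood in greenhouse pots at the flowering stage, the pots were flooded for 36 h and then drained until 48 h, and each of the 3 replicates of a condition was the root of a single plant from another pot. The sources used here do not say if plants of different hours stood in the same pots. Control pots were kept at normal soil water, and 30 control libraries of each genotype from 10 times were used beside the late ones, of which those at 32 h share an hour with late waterlogging. Another 36 libraries of each genotype came from 2 to 24 h of waterlogging and 18 of each from drainage at 38 to 48 h. Tolerance is represented by a single genotype, as is susceptibility, so a difference that goes with tolerance cannot be told apart from any other difference between these lines.

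Water that fills the pores of the soil slows the diffusion of oxygen to the root. Root cells then respire less, draw ATP from glycolysis and fermentation, and lower the synthesis of many transcripts and proteins, while ethylene and carbon dioxide collect in the root zone. Plants differ in how long their roots keep this state without dying, and sesame is known as a crop that stands it poorly. Expression was given as TPM (a transcript level scaled for gene length and to one fixed total in every library), and differences are EG minus R2G on log2(TPM + 1), a scale that understates the change of genes with low TPM. The gene table of the reference names GAPDH, FAD2, DGAT1 and MT by symbol among the 20271 genes and all others by number, so a role is given for those alone and the root label was not checked against cell type markers here.

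The 18 libraries were alike in the number of genes that reached 1 TPM and in the share of the highest genes. Between 15818 and 16571 genes reached 1 TPM in EG libraries, against 15580 to 16623 in R2G libraries, and the 10 highest genes took 5.69% to 7.09% of the TPM in EG and 5.95% to 7.61% in R2G. The factors of median-ratio scaling, which sets libraries by their typical gene, were less alike, and the main fits did not apply them. They ran from 0.659 in replicate 1 of R2G at 36 h to 1.00 in replicate 2 of EG at 32 h. On log2(TPM + 1), Pearson's correlation between replicates of a condition was 0.972 at the median and 0.920 at the lowest, and between the genotypes at the same hour it was 0.958 at the median. With 27 genes that parted the genotypes in control, 18 of 18 libraries were placed with the genotype of their label. Of the 18 libraries 8 correlated better with another condition than with their own replicates. For 4 of them this was another time of their genotype, and for 4, all from EG, it was R2G at the same hour. The margin was over 0.02 for replicate 2 of EG at 28 h, which was closest to EG at 36 h, and for replicate 1 of R2G at 32 h, which was closest to R2G at 36 h. Counts and named differences that moved over a threshold without these 2 libraries, or by over 1.5 times, are given with and without them.

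**Figure D1:**
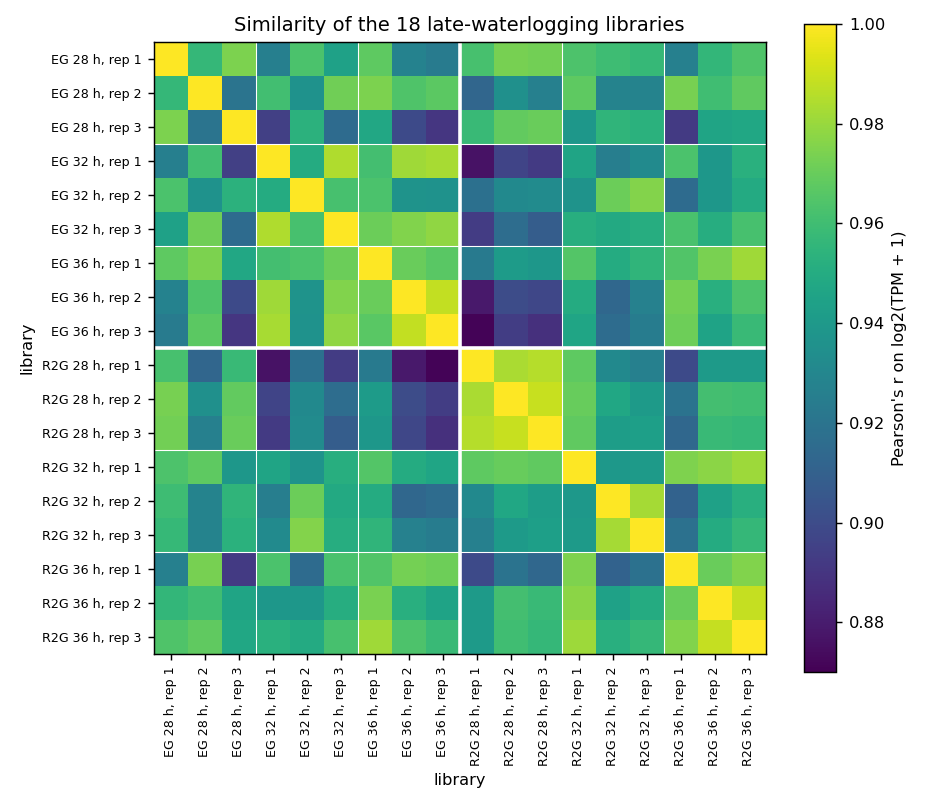
Pearson's correlation on log2(TPM + 1) between the 18 late-waterlogging libraries, with the 9 EG libraries first and the 9 R2G libraries after them and thin lines between the times. Correlations between replicates ran from 0.920 to 0.989, and the EG libraries at 28 h were spread more widely than the R2G libraries at 28 h.

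In late waterlogging 501 of 18178 tested genes differed between EG and R2G by limma with time as a factor (9 against 9 libraries), which is 2.76% of the genes tested. In whole roots a lower level can stand for fewer cells of a type or for less RNA in each cell, and these cannot be told apart. The call required a log2 difference of 1 or more in size and p under 0.05 after Benjamini-Hochberg adjustment. EG had the higher level for 228 genes (1.25% of those tested) and the lower level for 273 (1.50%), and the median difference over all tested genes was 0.01. The called differences were mostly moderate, with a median size of 1.25 on the log2 scale, and 46 genes reached a size of 2, of which 23 were higher and 23 lower in EG. An average of at least 10 TPM over the 18 libraries was reached by 290 of the 501 genes, against 9742 of the 18178 tested, and one of at least 100 TPM by 83, against 1947 of those tested. Without the threshold on size limma's adjusted p was under 0.05 for 2697 genes, 1259 higher and 1438 lower in EG. Without the 2 libraries that stood closer to another time 333 genes were called, 175 higher and 158 lower in EG, and 321 of these were among the 501. Without replicate 2 of every group the number was 298, of which 250 were among the 501.

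Complete separation of the genotypes was less common. The 9 EG values and the 9 R2G values did not overlap for 135 of the 18178 genes (0.743%), of which 70 (0.385%) were higher and 65 (0.358%) lower in EG. Among the 501 called genes 96 were separated in this way, 47 higher and 49 lower in EG. A stricter division, with every library of one genotype at 5 TPM or more and every library of the other under 1 TPM, was met by 5 genes. EG was the expressing genotype for LOC105173271, LOC105158214, LOC110011709 and LOC105167907, and R2G for LOC105167351.

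**Figure D2:**
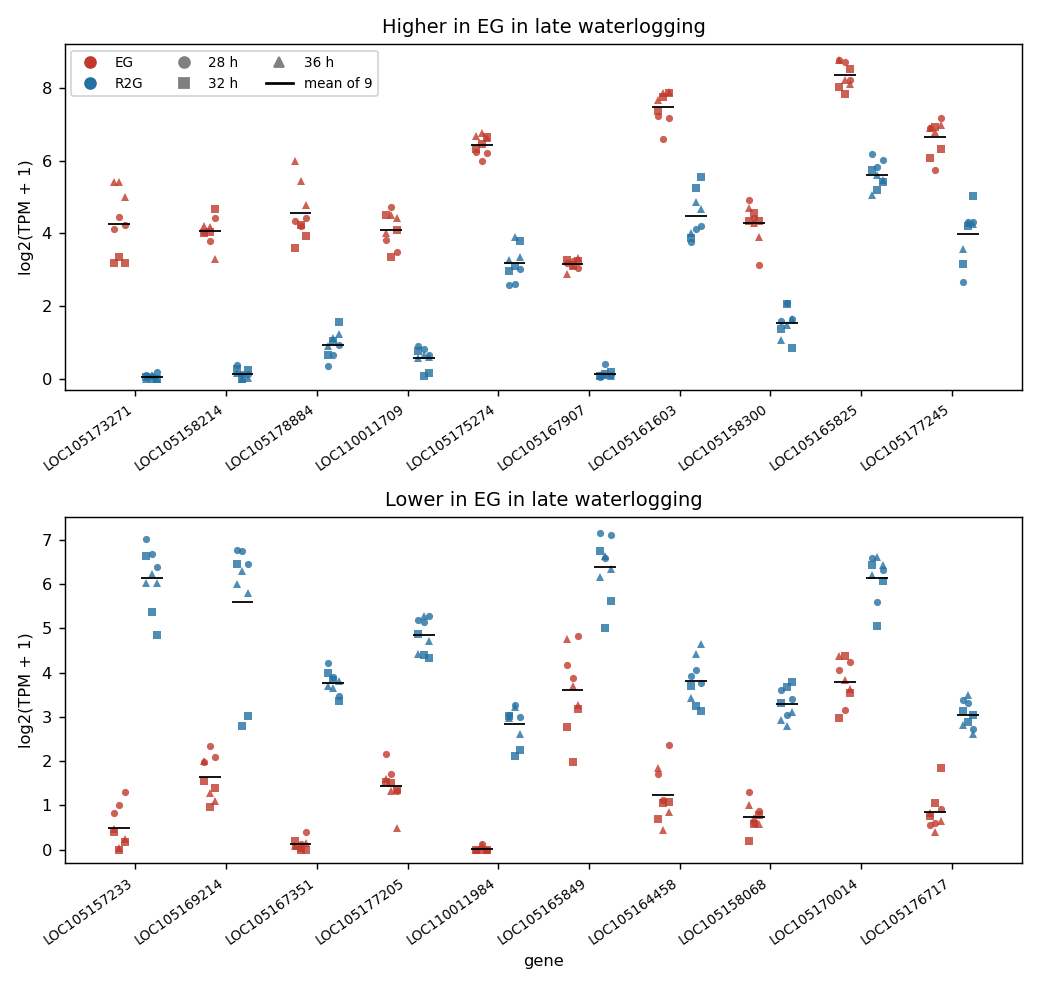
Level of the 10 genes with the largest positive difference (top) and the 10 with the largest negative difference (bottom) among called genes without overlap, as log2(TPM + 1) in each library, with EG left of R2G for each gene. Colours mark the genotype, symbols the hour and black bars the mean of 9 libraries, and in each of the 20 genes the 9 EG points lie apart from the 9 R2G points.

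The 4 genes expressed in EG and nearly silent in R2G held those levels with different steadiness. LOC105173271, on linkage group 11, from 2273320 to 2275382 of the reference assembly, had its lowest, median and highest levels at 8.09, 17.8 and 41.8 TPM in EG, against 0, 0.0351 and 0.138 TPM in R2G. Its difference of 4.21 (standard error 0.21, adjusted p = 3.1e-10 by limma) was the largest positive one among the genes without overlap. The EG level varied widely within these hours, while the R2G level stayed under 1 TPM in every library. LOC105158214 (linkage group 3, from 13023619 to 13026749) had 8.89, 15.6 and 24.4 TPM in EG, against 0, 0.107 and 0.294 TPM in R2G, a difference of 3.93 (standard error 0.14, adjusted p = 1.4e-12 by limma). LOC105167907 (linkage group 8, from 8099984 to 8108292) varied least in EG among the 4, with 6.44, 8.17 and 8.97 TPM in EG, against 0.0340, 0.0727 and 0.321 TPM in R2G, and a difference of 3.02 (standard error 0.08, adjusted p = 8.5e-14 by limma). For LOC110011709, a short gene on linkage group 3, from 10145646 to 10146548, the levels were 9.18, 16.1 and 25.7 TPM in EG, against 0.0534, 0.577 and 0.884 TPM in R2G, and the difference was 3.52 (standard error 0.18, adjusted p = 3.9e-10 by limma).

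Other genes were expressed in both genotypes and more strongly in EG. LOC105165825 (linkage group 6, from 21966922 to 21968436) was the most abundant of the 10, with 227, 297 and 437 TPM in EG, against 32.5, 47.7 and 71.8 TPM in R2G, a difference of 2.74 (standard error 0.13, adjusted p = 2.3e-10 by limma). LOC105161603 (linkage group 5, from 1577804 to 1581964) had 95.6, 201 and 237 TPM in EG, against 12.6, 17.4 and 45.9 TPM in R2G, a difference of 3.01 (standard error 0.19, adjusted p = 8.5e-09 by limma). In LOC105175274 (linkage group 12, from 2916367 to 2917713) the levels were 62.7, 87.8 and 108 TPM in EG, against 5.03, 7.58 and 13.8 TPM in R2G, a difference of 3.26 (standard error 0.12, adjusted p = 2.2e-12 by limma). All 3 were expressed in every library of both genotypes, so the genotypes differed in level and not in presence. The remaining genes of this group were LOC105177245 with a difference of 2.67, LOC105158300 with 2.76 and LOC105178884, which lies on no linkage group, with 3.61. Of these, LOC105178884 came nearest to an on and off pattern, at 11.1 to 62.8 TPM in EG and 0.272 to 1.95 TPM in R2G.

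Among the genes lower in EG, LOC105157233 had the largest difference of the whole comparison. This gene (linkage group 3, from 4694271 to 4697077) had its lowest, median and highest levels at 0, 0.315 and 1.46 TPM in EG, against 27.7, 74.1 and 129 TPM in R2G. The difference was -5.64 (standard error 0.19, adjusted p = 5.0e-13 by limma), and no EG library came near the lowest R2G library. LOC105167351 (linkage group 8, from 848933 to 856429) had 0, 0.0629 and 0.328 TPM in EG, against 9.22, 13.0 and 17.7 TPM in R2G, a difference of -3.65 (standard error 0.11, adjusted p = 2.5e-13 by limma). LOC110011984 (linkage group 5, from 9291727 to 9295054) was listed at 0 in 7 EG libraries and reached 0.0848 TPM in the highest, against 3.36, 6.98 and 8.58 TPM in R2G, a difference of -2.81 (standard error 0.13, adjusted p = 7.4e-11 by limma). These 3 genes were thus close to the lower end of the scale in EG throughout the late hours.

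LOC105169214 (linkage group 8, from 18043734 to 18047321) was uneven among the R2G replicates at 32 h. Its levels in EG were 0.956 to 4.07 TPM over all 9 libraries. In R2G they were 108, 107 and 86.9 TPM in replicates 1, 2 and 3 at 28 h, 86.2, 5.93 and 7.16 TPM at 32 h and 63.0, 77.7 and 54.4 TPM at 36 h. Replicate 1 of R2G at 32 h, one of the 2 libraries closer to another time, had a level like that at the other hours, and the other R2G replicates at 32 h were far lower, close to the highest EG library. The difference was -3.96 (standard error 0.40, adjusted p = 3.4e-06 by limma) over all libraries and -3.68 (adjusted p = 1.0e-05 by limma) without the 2 libraries. LOC105177205 (linkage group 15, from 689776 to 704437) had 0.404, 1.84 and 3.50 TPM in EG, against 19.0, 28.1 and 38.0 TPM in R2G, a difference of -3.40 (standard error 0.17, adjusted p = 2.6e-10 by limma). LOC105165849 (linkage group 6, from 23646839 to 23648778) and LOC105170014 (linkage group 1, from 15153089 to 15153963) had 2.97 to 27.4 TPM and 6.88 to 19.6 TPM in EG, against 31.4 to 141 TPM and 31.9 to 96.8 TPM in R2G. Their differences were -2.76 and -2.34. The last 3 genes of the group, LOC105164458, LOC105158068 and LOC105176717, had at most 4.15, 1.46 and 2.57 TPM in EG and at least 7.71, 5.98 and 5.08 TPM in R2G. Their differences were -2.57, -2.56 and -2.20, in the same order.

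Each late hour was then tested on its own, with 3 EG against 3 R2G libraries and the spread taken from all 18. At 28 h 242 genes (1.33%) were called by limma, 93 (0.512%) higher and 149 (0.820%) lower in EG. At 32 h there were 166 (0.913%), 72 (0.396%) higher and 94 (0.517%) lower in EG. At 36 h there were 148 (0.814%), of which 90 (0.495%) were higher and 58 (0.319%) lower in EG, but after median-ratio scaling between libraries the split turned to 76 higher and 89 lower. The 501 genes were chosen on these same libraries, so their signs at single hours are nearly fixed by the choice. Among them 68 were called at all 3 hours, 52 at 2 hours, 88 at 1 hour and 293 at none. These single-hour counts depended strongly on single replicates. Without replicate 3 they were 20 at 28 h, 17 at 32 h and 22 at 36 h, and without replicate 1 the count at 36 h was 567. They were 273 at 28 h, 308 at 32 h and 248 at 36 h without the 2 libraries closer to another time.

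The size of the difference changed among 28, 32 and 36 h for 1 gene (0.00550%) by limma's F test, with 623 genes at an unadjusted p under 0.05. This was LOC105173271, one of the genes expressed in EG and nearly silent in R2G. Its EG level was 16.5, 21.1 and 17.8 TPM in replicates 1, 2 and 3 at 28 h, 8.09, 9.23 and 8.19 TPM at 32 h and 41.8, 41.4 and 30.9 TPM at 36 h. The EG level was thus lowest at 32 h and highest at 36 h, with no overlap between the hours, and no R2G library exceeded 0.138 TPM. The differences were 4.16, 3.23 and 5.24 at the 3 hours, a range of 2.01 (adjusted p = 0.022 by limma). With a pseudocount of 0.1 in place of 1 no gene was called by limma, with 614 at an unadjusted p under 0.05, and without replicate 1, 2 or 3 none was called either, with 292 to 1457 at an unadjusted p under 0.05 by limma. Without the 2 libraries closer to another time 6 genes were called, among them LOC105173271 (adjusted p = 0.014) and LOC105169214, with a range of 3.01 (adjusted p = 0.0090 by limma).

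The control libraries show which late differences were also there without waterlogging. Averaged over the 10 control times (30 against 30 libraries), 161 genes (0.886%) were called by limma, 87 (0.479%) higher and 74 (0.407%) lower in EG. Without the threshold on size limma's adjusted p was under 0.05 for 4142 genes in control. The smaller called count thus does not mean that fewer genotype differences were detected in control. Of the 501 genes called in late waterlogging, 80 were called in control in the same direction, 40 higher and 40 lower in EG, and 1 in the opposite direction. These 80 are 16.0% of the late list and 49.7% of the control list. The control difference was under 0.5 in size for 323 of the 501 genes, and 97 had the opposite sign in control. Of the 96 called genes without overlap, 54 were called in control in the same direction. At the single shared hour, 32 h (3 against 3 libraries), 246 genes (1.35%) were called in control, 143 (0.787%) higher and 103 (0.567%) lower in EG. Median-ratio scaling turned this split to 95 higher and 102 lower, and 72 of the 246 were also called in late waterlogging in the same direction. Without replicate 1 and without replicate 3 the number was 19 and 17. It was 391 when only the waterlogged replicate 1 of R2G at 32 h was left out, in a fit that shares its spread with the waterlogged libraries.

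For part of the 20 named genes the late difference was about as large as the average over the control times. LOC105158214 had 10.7, 17.5 and 24.3 TPM over the EG control libraries, against 0, 0.0934 and 0.383 TPM over the R2G control libraries, and its difference was 3.93 in late waterlogging and 4.04 in control. LOC105167907 differed by 3.02 in late waterlogging and 3.16 in control, LOC105175274 by 3.26 and 3.27, and LOC105177245 by 2.67 and 2.61. At 32 h alone the waterlogged and the control difference were 3.08 and 4.09 for LOC105167907 and 3.20 and 2.31 for LOC105175274. They were 2.31 and 1.66 for LOC105177245 and 4.07 and 4.04 for LOC105158214. The departure at 32 h was not called for any of these genes. For others the late difference exceeded the control one by a called amount. In LOC105173271 the EG control libraries had 1.26, 3.29 and 10.2 TPM and the R2G control libraries 0, 0 and 0.134 TPM, so that the difference was 4.21 in late waterlogging, against 2.14 in control. LOC105157233 had 0 to 1.46 TPM in EG control, against 22.4 to 56.1 TPM in R2G control. Its R2G median was thus higher in late waterlogging than in control, 74.1 against 28.0 TPM, while its EG level stayed near 0. The difference of -5.64 departed from the control one of -4.50 by -1.14 (standard error 0.14, adjusted p = 2.2e-10 by limma). This departure was -0.96 without the 2 libraries closer to another time, short of the size required for a call. At 32 h, the hour shared with control, the effect of waterlogging on this gene in R2G was 0.75 and not called. The effect in EG minus that in R2G was -1.21 (adjusted p = 0.38 by limma). Without replicate 1 of R2G at 32 h the effect in R2G was 0.24. The effect in EG minus that in R2G was then -0.71 (adjusted p = 0.41 by limma). LOC105158068 was expressed by both genotypes in control, at 4.29, 11.5 and 17.8 TPM in EG and 12.6, 20.8 and 30.9 TPM in R2G. Its difference was -2.56 in late waterlogging, against -0.82 in control, and it was also called for a different effect of waterlogging at 32 h (adjusted p = 0.020 by limma).

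**Figure D3:**
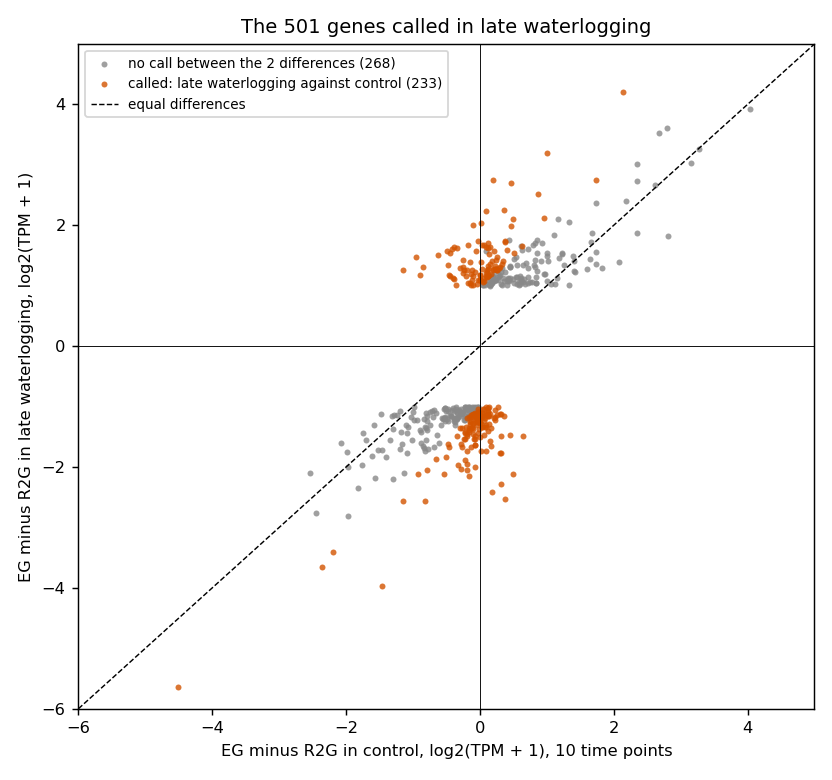
Difference between EG and R2G on log2(TPM + 1) in late waterlogging (vertical axis) against that in control over 10 times (horizontal axis) for the 501 genes called in late waterlogging, with a dashed line of equal differences. Orange points are the 233 genes for which the differences themselves were tested as unequal, and most of these lie near 0 on the control axis.

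Whether the late difference departed from the control difference was tested directly in one model of all 65 conditions. By limma 494 genes were called (2.72%), 283 (1.56%) with a difference that was more positive in late waterlogging than in control and 211 (1.16%) with one that was more negative. The balance of the directions was not stable. With a pseudocount of 0.1 there were 460 more positive and 553 more negative, without replicate 2 there were 143 and 174, with the control at 4, 8 and 12 h only there were 425 and 177, and without the 2 libraries closer to another time there were 240 and 126. Of the 366 genes called without these 2 libraries 326 were among the 494. Of the 501 genes called in late waterlogging 233 were in this list, 101 with EG higher and 132 with EG lower. These 233 genes had late differences that were called both against 0 and against the control difference. The other 261 of the 494 genes were not called in late waterlogging itself. The late and the control hours share 32 h alone, so hour and treatment cannot be fully told apart in this test. At 32 h, over 12 libraries, the effect of waterlogging differed between the genotypes for 63 tested genes (0.347%) by limma. Of the 494 genes 25 were called there in the same direction, and of the 501 late genes 15 were called there. These tests share the waterlogged libraries of that hour.

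The genes that moved furthest towards EG under late waterlogging included a pair of neighbours on linkage group 6. LOC105164543, from 15750874 to 15763701, had 22.3, 128 and 10.9 TPM in the EG replicates 1, 2 and 3 at 28 h, 83.7, 34.1 and 73.3 TPM at 32 h and 52.9, 137 and 178 TPM at 36 h. The R2G levels were 4.56, 6.04 and 6.49 TPM at 28 h, 14.6, 2.08 and 2.57 TPM at 32 h and 25.4, 19.9 and 12.6 TPM at 36 h. In control the genotypes overlapped, at 3.41 to 18.2 TPM in EG and 5.09 to 15.6 TPM in R2G. Its late difference of 2.75 (standard error 0.42, adjusted p = 4.2e-04 by limma) therefore stood 2.55 (standard error 0.31, adjusted p = 6.1e-11 by limma) above the control difference. LOC105165024 begins 135 bases beyond its end and was chosen for description after its values were seen. It had 81.3, 451 and 24.0 TPM in EG at 28 h, 427, 104 and 261 TPM at 32 h and 172, 487 and 613 TPM at 36 h, against 9.66, 20.2 and 18.7 TPM, 58.9, 6.30 and 21.5 TPM and 112, 73.3 and 78.1 TPM in R2G at the same hours. Both genes were highest at 28 h in replicate 2 of EG, the library that stood closer to 36 h. Without the 2 libraries closer to another time the late differences were 2.66 for LOC105164543 (adjusted p = 0.00037) and 2.53 for LOC105165024 (adjusted p = 0.0025), both by limma. At 32 h, the hour shared with control, the waterlogging effect in EG minus that in R2G was not called for either gene, at 3.39 (adjusted p = 0.085 by limma) and 3.72 (adjusted p = 0.11 by limma). Without replicate 1 of R2G at 32 h it was called, at 4.14 (adjusted p = 0.015 by limma) and 4.46 (adjusted p = 0.036 by limma). That replicate had the highest R2G level of both genes at this hour, so leaving it out was bound to enlarge the difference.

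A second set was strongly expressed at 32 and 36 h in both genotypes. LOC105164435 (linkage group 1, from 12284523 to 12285768) had 966, 102 and 268 TPM in EG at 32 h, against 151, 72.1 and 59.9 TPM in R2G, and LOC105178104 (linkage group 15, from 6752246 to 6753165) had 1644, 299 and 786 TPM in EG, against 263, 499.8 and 242 TPM in R2G. Levels at 28 h were lower, at 22.0, 57.5 and 5.67 TPM of LOC105164435 in EG, against 6.05, 14.2 and 21.2 TPM in R2G. Neither gene was called in late waterlogging, with differences of 1.33 (standard error 0.49, adjusted p = 0.075 by limma) and 0.97 (standard error 0.39, adjusted p = 0.10 by limma), and their EG and R2G values overlapped. They were named because the control difference was negative, -1.90 and -1.67, which put the late difference 3.23 (standard error 0.46, adjusted p = 2.6e-08 by limma) and 2.65 (standard error 0.45, adjusted p = 2.8e-06 by limma) above it. In control at 32 h LOC105178104 was already at 111 to 449 TPM in EG and 564 to 692 TPM in R2G, while its median over all control libraries was 3.75 TPM in EG and 12.4 TPM in R2G. High levels at this hour were thus not confined to waterlogging. At 32 h alone the control difference was -0.24 for LOC105164435 and -1.53 for LOC105178104, neither of them called. The waterlogged difference at 32 h exceeded it by 2.01 (adjusted p = 0.43 by limma) and 2.73 (adjusted p = 0.16 by limma), which was not called for either gene. LOC105167100 and LOC105167110, close together on linkage group 7 and chosen after their values were seen, were also higher at 32 and 36 h than at 28 h in both genotypes, with up to 2093 and 2674 TPM in EG, against 755 and 898 TPM in R2G. Their late differences of 1.47 (standard error 0.46, adjusted p = 0.038 by limma) and 1.26 (standard error 0.38, adjusted p = 0.033 by limma) lost the call without the 2 libraries closer to another time (adjusted p = 0.077 and 0.099 by limma).

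In the other direction, LOC105174448 (linkage group 11, from 14038054 to 14038970) was abundant in control and low in late waterlogging in both genotypes, and lower in EG. Its control levels were 189.6, 857 and 1537 TPM in EG and 155, 587 and 1941 TPM in R2G at the lowest, median and highest. At 28 h of waterlogging EG had 23.3, 7.97 and 47.7 TPM, against 43.1, 133 and 87.0 TPM in R2G. At 32 h EG had 3.18, 2.05 and 1.69 TPM, against 24.4, 18.1 and 16.0 TPM in R2G, and at 36 h EG had 1.86, 0.557 and 1.46 TPM, against 4.44, 61.8 and 17.7 TPM in R2G. The values of the genotypes were apart at 32 and 36 h and overlapped at 28 h, and the difference was not called by limma at any single hour. Its late difference was -2.52 (standard error 0.40, adjusted p = 5.8e-04 by limma). The late minus the control difference was -2.91 (standard error 0.40, adjusted p = 1.1e-08 by limma). The effect at 32 h of waterlogging against control was -7.61 in EG and -4.49 in R2G (test of the difference, adjusted p = 0.020 by limma). Without the 2 libraries closer to another time the late difference was -2.32 (adjusted p = 0.0032 by limma) and the late minus the control difference -2.64. LOC105163771, chosen after its values were seen, followed the same course on linkage group 6, from 4977299 to 4978264, with 0.243 to 12.7 TPM in EG and 1.09 to 24.8 TPM in R2G in late waterlogging and medians of 78.0 TPM in EG control and 54.6 TPM in R2G control. Its late difference was -2.12 (standard error 0.37, adjusted p = 0.0012 by limma). LOC105179126 and LOC105160350, chosen likewise, had late differences of -2.28 and -2.41, and neither was called without replicate 2 (adjusted p = 0.24 and 0.13 by limma).

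A loss of the control difference was another form of change. LOC105155254, on no linkage group, and LOC105172091 (linkage group 10, from 5165111 to 5168369) were far higher in EG than in R2G in control. LOC105172091 had 32.8, 122 and 394 TPM in EG control, against 2.55, 6.41 and 33.9 TPM in R2G control, and LOC105155254 had 0.776, 90.3 and 910.2 TPM in EG control, against 0.0334, 2.60 and 120.4 TPM in R2G control. In late waterlogging LOC105172091 was at 0 to 3.82 TPM in EG and 0 to 1.85 TPM in R2G, and LOC105155254 at 0 to 0.699 TPM in EG and 0 to 0.294 TPM in R2G. Both genes were thus near the lower end of the scale in either genotype, with late differences of 0.34 and 0.14 that were not called. Without the 2 libraries closer to another time that of LOC105172091 was 0.52, still short of the size required for a call. The late minus the control difference was -3.24 (standard error 0.31, adjusted p = 1.0e-15 by limma) for LOC105172091 and -3.38 (standard error 0.34, adjusted p = 1.5e-14 by limma) for LOC105155254. Between waterlogging and control at 32 h alone the departure was -2.05 (adjusted p = 0.17 by limma) and -2.24 (adjusted p = 0.12 by limma), and it was not called for either gene.

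**Figure D4:**
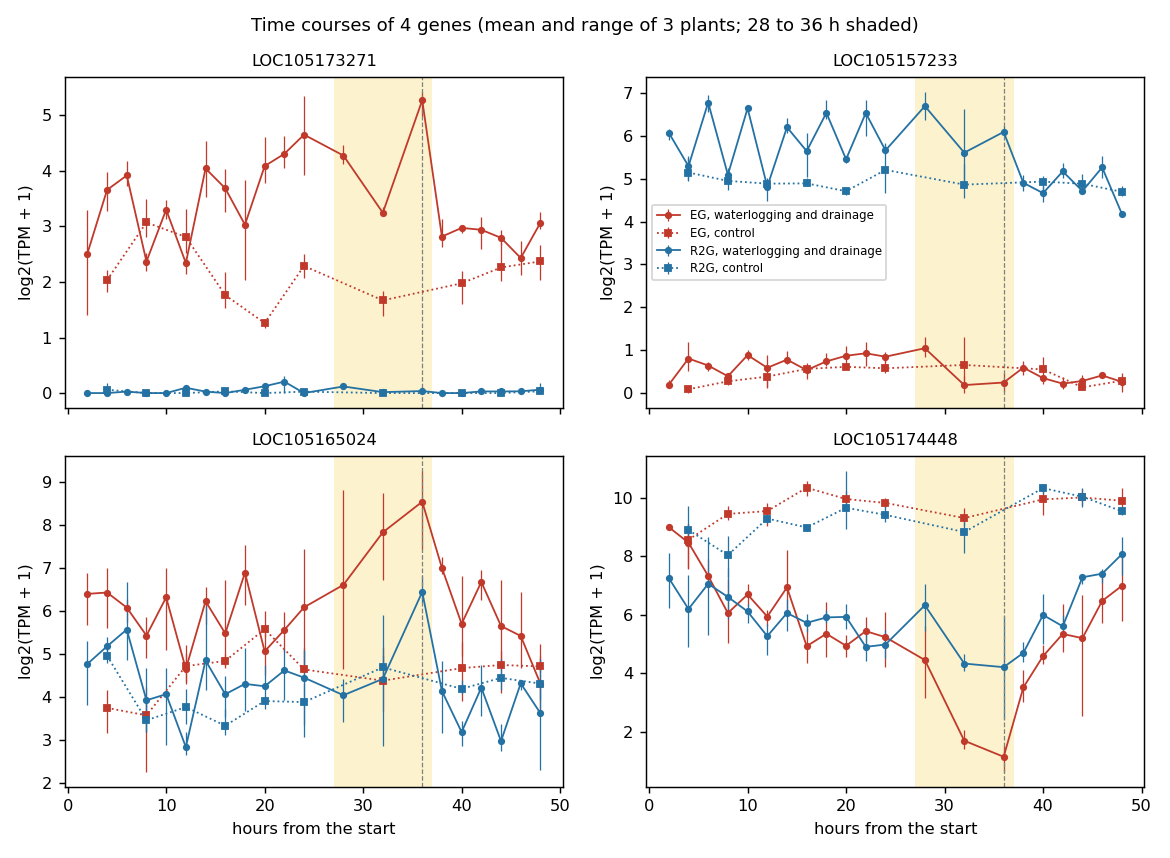
Level of 4 genes over the experiment as log2(TPM + 1), with hours from the start on the horizontal axis, points for the mean and bars for the range of 3 plants, solid lines for waterlogging and drainage and dotted lines for control. The late hours are shaded and the dashed line marks the end of flooding, and the panels show 2 genes apart in every phase (top), LOC105165024 higher in EG in the shaded hours and LOC105174448 lower in EG there on average.

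Waterlogging itself, against control at 32 h, moved many more genes than the genotypes differed by. In EG 5898 genes (32.4%) were called by limma, 972 (5.35%) higher and 4926 (27.1%) lower in waterlogging. In R2G 3906 genes (21.5%) were called, 591 (3.25%) higher and 3315 (18.2%) lower. The median effect over all tested genes was itself below 0, at -0.41 in EG and -0.30 in R2G, on a scale with one fixed total. How much of the excess of lower calls goes with this shift was not tested. Without replicate 1 of R2G at 32 h the numbers were 6011 in EG and 4156 in R2G. Of the 132 genes called lower in EG and more so than in control, 114 were called lower in waterlogging at 32 h in EG and 64 in R2G, with median effects of -2.49 in EG and -1.09 in R2G. Of the 101 genes called higher in EG and more so than in control, 48 were called higher in waterlogging at 32 h in EG and 10 in R2G, while 3 fell in EG and 15 in R2G. The median effects of these 101 genes were 1.05 in EG and -0.33 in R2G. The late comparison and the 32 h comparison share the waterlogged libraries of that hour, so these counts describe the lists and do not test them.

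The difference between the effects of waterlogging in EG and R2G at 32 h was tested as an interaction over 12 libraries. By limma 63 genes (0.347%) were called, 30 (0.165%) with the more positive effect in EG and 33 (0.182%) with the more negative effect in EG. LOC105173271 had the more positive effect in EG, with an effect of 1.58 in EG and 0.02 in R2G (test of the difference 1.56, adjusted p = 0.030 by limma). LOC105158068 had effects of -2.63 in EG and -0.43 in R2G, and LOC105163771 of -5.24 in EG and -1.74 in R2G (adjusted p = 0.048 by limma). This count was unstable, at 37 after median-ratio scaling and 0 without replicate 1 or without replicate 3, where 1959 and 1290 genes had an unadjusted p under 0.05 by limma. Without replicate 1 of R2G at 32 h, which is closer to another time, it was 123, of which 60 were among the 63, and LOC105163771 was not called (adjusted p = 0.053 by limma).

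The late difference was also set against the first day of waterlogging. From 2 to 24 h (36 against 36 libraries) 210 genes (1.16%) were called between EG and R2G by limma, 132 (0.726%) higher and 78 (0.429%) lower in EG. Of the 501 late genes 116 were called there in the same direction, and 414 had the same sign. By a test of the difference between the periods 494 genes (2.72%) were called, 219 (1.20%) with a more positive and 275 (1.51%) with a more negative difference in the late hours. LOC105174448 was among these, with a difference of -2.52 in the late hours, against 0.36 from 2 to 24 h, and so was LOC105169214, with -3.96 against -2.94. Without the 2 libraries closer to another time 317 genes were called, 304 of them among the 494, and LOC105169214 was not, with a change of -0.66 between the periods. LOC105164543 differed by 2.75 in the late hours and by 1.20 from 2 to 24 h, and the change between the periods was called as well (adjusted p = 4.0e-05 by limma). The largest late difference was already there in the first day, as LOC105157233 differed by -5.64 in the late hours and by -5.21 from 2 to 24 h.

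After drainage, at 38 to 48 h (18 against 18 libraries, with the EG plants labelled wilting left out), 419 genes (2.30%) were called by limma, 208 (1.14%) higher and 211 (1.16%) lower in EG. Of the 501 late genes 478 had the same sign in drainage. In the same direction 158 were called, and 0 were called in the opposite direction by limma. The counts of signs, here and for control and 2 to 24 h, have no share over all tested genes beside them. They describe the list alone. LOC105174448 had 4.79, 41.1 and 273 TPM in EG, against 20.1, 118 and 409 TPM in R2G, so that levels of both genotypes were above those of late waterlogging at the median. LOC105169214 had 1.19, 2.66 and 5.45 TPM in EG, against 3.08, 12.0 and 41.9 TPM in R2G, and its difference was -1.93 in drainage, against -3.96 in late waterlogging. LOC105178884 differed by 4.82 in drainage, against 3.61 in late waterlogging, with 14.5, 59.8 and 161 TPM in EG and 0.289, 0.871 and 1.33 TPM in R2G.

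Taking the periods side by side, 59 of the 501 genes were called in the same direction in control, from 2 to 24 h, in late waterlogging and in drainage, 30 higher and 29 lower in EG. A larger number, 306, were called in late waterlogging and in none of the other periods in the same direction. A call in one period and not in another does not show that the periods differ, and that was tested only by the contrasts above. The periods also differ in their number of libraries. Without the threshold on size limma's adjusted p was under 0.05 for 4142 genes in control, 7215 from 2 to 24 h, 2697 in late waterlogging and 6943 in drainage.

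The 3 tested genes with a symbol were not called between the genotypes in late waterlogging. GAPDH (LOC105156676), a glycolytic dehydrogenase, had 229, 493 and 1423 TPM in EG, against 250.4, 963 and 1359 TPM in R2G, a difference of -0.45 (standard error 0.28, adjusted p = 0.28 by limma). Its medians in control were 274 TPM in EG and 284 TPM in R2G. FAD2 (LOC105163532), the desaturase that makes linoleic from oleic acid, was low in both genotypes, at 0.0716, 0.482 and 1.67 TPM in EG and 0.204, 1.57 and 2.14 TPM in R2G, while its control medians were 15.6 TPM in EG and 16.7 TPM in R2G. DGAT1 (LOC105173637), which catalyses the last step of triacylglycerol synthesis, had 73.0, 85.8 and 108 TPM in EG, against 62.3, 70.4 and 88.7 TPM in R2G, a difference of 0.24 (standard error 0.09, adjusted p = 0.069 by limma). The values of all 3 genes overlapped between the genotypes.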

How the data were processed

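RNA was extracted from the roots with TRIzol, and mRNA was selected with oligo(dT) and sequenced in paired ends. The authors trimmed the reads (Trimmomatic 0.32, per the submitters' processing notes), aligned them with STAR to the sesame genome v1.0 with at most 1 mismatch, used featureCounts to count uniquely placed reads and deposited TPM for 20271 genes. Reads that differ more from the reference are lost, which could lower the TPM of a gene in one genotype, and this was not tested. TPM holds no depth (sums per library 999585 to 999814), so no counting error is given. In R 4.3.3, limma 3.58.1 (linear model and moderated statistics with a trend) was run on log2(TPM + 1) for the 18178 genes with a mean of at least 1 TPM over all 195 libraries, with Benjamini-Hochberg adjustment. Late waterlogging was fitted on 18 libraries as genotype plus time, single hours with 6 groups, 32 h comparisons on 12 libraries, and averages over periods on all 195. On simulated data 194 of 200 genes changed by 2 were recovered in the late comparison, with 2 false calls among the unchanged genes. The noise was drawn for each gene apart, and the changed genes were well expressed. Shifts shared by the genes of a whole library were left out, so errors from these were not measured.

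Named were the 10 largest differences in each direction among called genes with the same sign at each hour and no overlap, the 3 largest in each direction for late waterlogging against control, and genes that changed among the hours. The samples, lists and tests were chosen with earlier results of these data known. Gene lists for hypoxia and cell type markers had been set as protein motifs or product names, and as the reference table used here (S_indicum_v1.0, RefSeq) holds gene numbers and positions (20267 matched by symbol, 4 by gene number), they were not applied and no sequence is shown. Alternatives were a pseudocount of 0.1, no filter, median-ratio scaling, a replicate block, left-out replicates, libraries and hours, array weights and other sample sets. Linkage groups were summarised in Python 3.11.15.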

Additional observations from a re-analysis of the deposited data

Results flagged for a closer look

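In 4 of 64 groups of 9 late libraries (32 genes in 2 genotypes) a single library lay far from the others by Dixon's criterion, and chance alone marks about 1 in 20 groups. LOC105167907 in R2G had 0.321 TPM in replicate 2 at 28 h, with the next library at 0.139 TPM. LOC105167351 in EG had 0.328 TPM in replicate 3 at 28 h, with the next at 0.151 TPM. LOC105177205 in EG had 0.404 TPM in replicate 3 at 36 h, below the next at 1.51 TPM. LOC105176717 in EG had 2.57 TPM in replicate 3 at 32 h, above the next at 1.06 TPM. These genes were chosen for values without overlap, so each single library lay on the side of its own genotype by that choice.

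The genotype difference departed from that in control for 494 genes by limma, and the genotypes differed in the effect of waterlogging at 32 h for 63 genes by limma. Both are tests of the difference itself and were therefore marked for a closer look.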

How the results depend on the processing

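Counts were recomputed 120 times, of which 80 stayed within 1.5 times the reported count and 40 did not. Late differences of the named genes were recomputed 256 times. In 245 they kept direction and call, or the lack of a call for LOC105164435, LOC105178104, LOC105155254 and LOC105172091. In 11 they kept direction and lost the call (LOC105167100, LOC105167110, LOC105179126 and LOC105160350), and 0 reversed by limma. Most of the named genes were chosen for large differences without overlap in these same libraries, so their steadiness is largely fixed by the choice.

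With a pseudocount of 0.1 the counts were 925 for late waterlogging (358 higher and 567 lower in EG), 255 in control, 130 in control at 32 h, 1013 for late waterlogging against control, 986 for late against 2 to 24 h, 766 in drainage and 0 for change among the hours. Median-ratio scaling gave 37 for the interaction at 32 h. With a spread shared by all 195 libraries the counts were 799 at 28 h, 761 at 32 h, 540 at 36 h, 698 in control at 32 h and 1115 for the interaction at 32 h. Alternatives chosen after seeing the data gave 2697 late genes without a threshold on size and, without the 2 libraries closer to another time, 333 late genes, 308 at 32 h, 248 at 36 h, 6 for change among the hours, 391 in control at 32 h, 123 for the interaction and 317 for late against 2 to 24 h. The cause of these moves was not tested.

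When replicates were left out, limma called 298 to 656 genes in late waterlogging (405 to 656 with 1 library left out, 360 to 433 with 1 hour left out), 20 to 183 at 28 h, 17 to 100 at 32 h, 22 to 567 at 36 h, 172 to 181 in control, 17 to 252 in control at 32 h, 0 to 45 for the interaction, 317 to 647 for late waterlogging against control, 427 to 557 for late against 2 to 24 h and 284 to 570 in drainage. For change among the hours the count was 0 each time, with 292 to 1457 genes at an unadjusted p under 0.05. These fits also have fewer samples.

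The study describes randomized blocks, and the labels do not tie a replicate number to a block. Deviations of same-numbered EG and R2G libraries correlated at -0.558 to 0.474 over 9 pairs, so the numbers were not taken to pair the plants. With a replicate block the late count was 485, of which 482 were shared, the interaction at 32 h called 6 genes and change among the hours 0 (2447 and 579 at an unadjusted p under 0.05 by limma). The late difference of LOC105167100 under the block was 1.47 (adjusted p = 0.051 by limma). TPM holds no depth, so the precision of low levels is unknown.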

Other observations

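Of the 501 late genes 475 lay on the 16 linkage groups, among 17517 tested genes there. The share called ran from 1.32% on linkage group 13 (5 of 378 genes) to 3.73% on linkage group 1 (55 of 1474), with no test made. On linkage group 3 67 of 1878 genes were called, the largest number, and on linkage group 16 3 of 170. In the order of tested genes, 14.1% of the called genes had a called neighbour, against 5.09% of the genes not called. Both genes were called in 36 pairs of neighbours, in the same direction in 30 and in opposite directions in 6. Reads of near-identical neighbours could be divided or lost in unique counting, so levels of such genes are uncertain.

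Among the pairs, LOC105157233, with the largest late difference, lay 1635 bases beyond LOC105157235, which differed by -1.47. LOC110011709 lay 836 bases beyond LOC105158098, which differed by 2.53. LOC105169214 lay 130 bases beyond LOC105169213, which differed by -1.60. In the opposite sense, LOC105167907, expressed in EG with a difference of 3.02, lay 2400 bases beyond LOC105167905, which differed by -1.08, and LOC105160014, with 2.23, lay 713 bases beyond LOC105160013, with -1.31. In 5 places 3 neighbours were called in a row, each time in the same direction. EG was higher in the rows LOC105158295 to LOC105158300 (linkage group 3, 13663609 to 13691020), LOC105167109 to LOC105167111 (linkage group 7, 11170575 to 11175638), LOC105167412 to LOC105167414 (linkage group 8, 1775460 to 1819063) and LOC105171699 to LOC105171701 (linkage group 10, 2367055 to 2380251). EG was lower in the row LOC105169232 to LOC105169236 (linkage group 8, 18181147 to 18194628). The row on linkage group 7 depends on LOC105167110. This gene lost the call without the 2 libraries closer to another time (adjusted p = 0.099 by limma) and after median-ratio scaling (adjusted p = 0.052 by limma).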
